A study of Mus musculus with 2 samples.

Results

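Ttn, Neb, Nebl, Ryr2 and Myo3b, 5 genes with long genomic spans that are known mostly from muscle or sensory cells, were followed in mouse regulatory T (Treg) cells sorted by a mitochondrial dye. They are 5 of the 32285 features counted in each library, and they were picked by symbol after earlier results of these data had shown them lower in one sorted population, so their overall ratio is a description of how they were chosen. Treg cells had been stained with MitoTracker, a fluorescent dye that collects in mitochondria, and sorted into a dye-high population, Mito-high, and a dye-low population, Mito-low. Each population is 1 single-cell library, made with a 10x Genomics 5′ kit per the labels' protocols, so there was no spread between replicates to hold a difference against, and none was tested. No genotype or treatment sets the groups apart in the labels, and the sources used here do not give strain, tissue, sex or age.

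Ttn encodes titin, the giant elastic protein of the sarcomere, the contractile unit of striated muscle. Neb encodes nebulin, which runs along the actin filaments of skeletal muscle, and Nebl encodes its smaller relative nebulette of heart muscle as well as a shorter LIM-domain form found outside muscle. Ryr2 encodes the ryanodine receptor that releases calcium from the sarcoplasmic reticulum of heart muscle. Myo3b encodes a class III myosin with a kinase domain, known from the actin-filled protrusions of sensory hair cells, and is not a sarcomere gene, so the name giant muscle-type genes does not describe it. In the GENCODE M21 annotation of GRCm38, Ttn (ENSMUSG00000051747) lies at chr2:76703980-76982547, Neb (ENSMUSG00000026950) at chr2:52136647-52378474, Nebl (ENSMUSG00000053702) at chr2:17343909-17731464 and Ryr2 (ENSMUSG00000021313) at chr13:11553102-12106945, all on the minus strand. Myo3b (ENSMUSG00000042064) lies on the plus strand at chr2:70039126-70429198. Exons cover 117 of the 279 kb of Ttn, 26.6 of the 242 kb of Neb and 15.2 of the 388 kb of Nebl. They cover 28.8 of the 554 kb of Ryr2 and 7.04 of the 390.1 kb of Myo3b.

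Promoter sequences are shown because all 5 genes were lower in the same library and MEF2, a factor of muscle genes, has a short motif that can be looked for. The RefSeq table for GRCm38.p6 matched 4 of the 5 genes, Ttn, Nebl, Ryr2 and Myo3b, and each sequence runs from 250 bases before to 50 bases after a start. Capitals mark matches on either strand to CTANNNNTAG, to TGTTTAC, a forkhead motif, or to TATAAA, the TATA box. CTANNNNTAG is a loose form of the MEF2 motif, with any base allowed at each N.
Ttn, chr2:76982498-76982797, minus strand: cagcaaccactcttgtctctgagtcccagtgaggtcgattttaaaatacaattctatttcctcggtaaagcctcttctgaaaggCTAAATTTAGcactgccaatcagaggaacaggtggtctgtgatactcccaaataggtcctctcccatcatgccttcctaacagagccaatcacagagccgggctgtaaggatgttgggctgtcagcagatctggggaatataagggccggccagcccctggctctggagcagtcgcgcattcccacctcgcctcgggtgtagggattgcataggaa
Nebl, start farthest upstream, chr2:17731085-17731384, minus strand: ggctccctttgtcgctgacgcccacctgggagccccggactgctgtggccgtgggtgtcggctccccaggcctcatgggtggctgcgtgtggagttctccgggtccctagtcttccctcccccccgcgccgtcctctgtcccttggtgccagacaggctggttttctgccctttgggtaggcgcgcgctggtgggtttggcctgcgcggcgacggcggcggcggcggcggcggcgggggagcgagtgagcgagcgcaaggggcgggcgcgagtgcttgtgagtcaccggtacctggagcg
Ryr2, chr13:12106896-12107195, minus strand: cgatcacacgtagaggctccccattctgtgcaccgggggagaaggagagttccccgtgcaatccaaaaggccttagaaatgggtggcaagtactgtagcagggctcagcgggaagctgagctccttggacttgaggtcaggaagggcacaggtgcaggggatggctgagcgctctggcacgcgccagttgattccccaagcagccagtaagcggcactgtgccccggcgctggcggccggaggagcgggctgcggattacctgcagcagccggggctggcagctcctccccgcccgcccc
Myo3b, chr2:70038876-70039175, plus strand: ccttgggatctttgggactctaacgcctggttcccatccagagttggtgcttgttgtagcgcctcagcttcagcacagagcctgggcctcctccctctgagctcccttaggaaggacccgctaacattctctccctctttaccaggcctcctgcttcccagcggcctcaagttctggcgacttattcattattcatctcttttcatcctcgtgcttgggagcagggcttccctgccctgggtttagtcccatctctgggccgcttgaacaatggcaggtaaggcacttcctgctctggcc
The Ttn promoter holds 1 MEF2 match, which begins 166 bases before the start, and none of the 3 motifs is in the other sequences shown. Of the 32851 promoters of this length in the table, 3.69% hold this loose form of the MEF2 motif, 3.65% the forkhead motif and 13.6% the TATA box. The E-box CANNTG, the motif of muscle regulators such as Myod1, was left in lower case, and 72.3% of all promoters hold it. It occurs 1 time in the Ttn sequence, 1 time in that of Nebl, 2 times in that of Ryr2 and 0 times in that of Myo3b. GC content is 51.7% for Ttn, 72.0% for the Nebl start shown, 65.3% for Ryr2 and 56.3% for Myo3b, beside a median of 52.7% over all promoters. RefSeq gives further Nebl starts, with a GC content of 48%, 46% and 37.7%, and which start these cells use was not tested. A match describes the letters and not binding.

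The Mito-high library held 12352 barcodes with 89996794 UMIs (unique molecular identifiers, 1 for each captured molecule), and the Mito-low library 11901 barcodes with 60688904 UMIs. The labels' protocols give 12000 cells loaded for each library, fewer than the Mito-high barcodes deposited or kept, so a kept barcode, called a cell here, is not in every case 1 loaded cell. Barcodes with at least 500 genes and at most 20% mitochondrial UMIs (genes named mt-) were kept, 12217 in Mito-high with a median of 6132 UMIs and 11679 in Mito-low with a median of 4668 UMIs. The libraries shared 38 barcodes, 0.308% of those in Mito-high and 0.319% of those in Mito-low. Barcodes left out held 7 Ttn UMIs in Mito-high and 84 Ttn UMIs in Mito-low. The 8 Treg markers summed to 3836 UMIs per 1000000 (CPM) in Mito-high, against 5566 in Mito-low, and the 6 T cell markers to 3014 CPM and 3856 CPM. B cell markers summed to 32.6 CPM in Mito-high cells, against 20.9 CPM in Mito-low cells, and myeloid markers to 84.6 CPM and 106 CPM.

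Other muscle genes were scarce in both libraries. The 31 genes of the sarcomere and muscle fibre on the list summed to 28.0 CPM in Mito-high cells, against 33.3 CPM in Mito-low cells, and 5 of them, the myosin heavy chains Myh1, Myh2, Myh4 and Myh7 and the troponin Tnni2, had 0 UMIs in both. Of the 31, 2 reached a mean of 5 CPM over both libraries, the level from which a gene is called measured here. Actn2, the alpha-actinin of the muscle Z-disc, was at 9.31 CPM in Mito-high cells, against 15.7 CPM in Mito-low cells, and Mylpf, a myosin light chain of fast muscle, at 7.29 CPM in Mito-high cells, against 4.49 CPM in Mito-low cells. Of 6 muscle regulators, Myog, Myf5 and Myf6 had 0 UMIs in both libraries. Mef2c, which B cells express too, had 245 UMIs in Mito-high and 5 UMIs in Mito-low and was a leading gene of a cluster of 23 Mito-high cells with the B cell markers H2-Aa, H2-Ab1 and Ebf1.

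All 5 genes were lower in Mito-high than in Mito-low over the kept cells, Ttn and Neb by the most. Ttn had 484 UMIs or 5.38 CPM in Mito-high, against 1741 UMIs or 28.8 CPM in Mito-low, a log2 ratio of -2.42 (95% interval -2.57 to -2.27). Neb had 1211 UMIs or 13.5 CPM in Mito-high, against 3689 UMIs or 60.9 CPM in Mito-low, a log2 ratio of -2.18 (-2.27 to -2.08). These are levels 5.34-fold and 4.52-fold lower in Mito-high. Myo3b had 2812 UMIs or 31.3 CPM in Mito-high, against 5458 UMIs or 90.2 CPM in Mito-low, a log2 ratio of -1.53 (-1.59 to -1.46). Nebl had 3212 UMIs or 35.7 CPM in Mito-high, against 3868 UMIs or 63.9 CPM in Mito-low, a log2 ratio of -0.84 (-0.91 to -0.77). Ryr2 had 1987 UMIs or 22.1 CPM in Mito-high, against 2024 UMIs or 33.4 CPM in Mito-low, a log2 ratio of -0.60 (-0.69 to -0.51), so its UMI numbers were close and the libraries' totals were not. Intervals here and below cover counting error only, and UMIs of 1 library are no measure of the spread between mice.

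The 5 of 5 genes at least 1.5-fold lower in Mito-high stand beside 11.5% of the 8951 measured genes, and 0 of 5 at least 1.5-fold higher beside 4.22%, and since this ratio chose the genes nothing is read from these counts. The median log2 ratio of all measured genes was -0.15. With that median set to 0, Ryr2 was at -0.44 and no longer 1.5-fold lower. Counted from the lowest ratio of the measured genes, Ttn was number 19, Neb 26, Myo3b 115, Nebl 518 and Ryr2 997. Ryr2 thus stood just inside the 1.5-fold mark and Nebl not far past it.

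Measured genes with long spans, the 5 left out, were also lower in Mito-high, by less. The 1118 genes with a span of at least 100 kb had their median log2 ratio at -0.24, and 16.99% of them were at least 1.5-fold lower. The 7823 genes under 100 kb had a median of -0.14, and 10.7% were at least 1.5-fold lower. Among the 353 genes of at least 200 kb the median was -0.27. The part of span in the ratios of the 5 genes was not tested.

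The share of cells with a UMI showed the same side for each gene at equal depth. For this, every cell was reduced to 2000 randomly drawn UMIs, and 139 cells of Mito-high and 491 of Mito-low that had fewer were set aside. Ttn was detected in 0.811% of thinned Mito-high cells (exact 95% interval 0.659% to 0.988%), against 4.44% of thinned Mito-low cells (4.07% to 4.84%). Neb was detected in 2.59% of thinned Mito-high cells (2.32% to 2.89%), against 9.44% of thinned Mito-low cells (8.90% to 9.996%). Myo3b was detected in 4.58% of thinned Mito-high cells (4.21% to 4.97%), against 13.9% of thinned Mito-low cells (13.2% to 14.5%). As a ratio of the shares, these 3 differed by the most. Nebl was detected in 5.04% of thinned Mito-high cells (4.66% to 5.45%), against 9.41% of thinned Mito-low cells (8.88% to 9.97%). Ryr2 was the closest, in 2.76% of thinned Mito-high cells (2.47% to 3.06%), against 3.95% of thinned Mito-low cells (3.597% to 4.33%).

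Without thinning, the shares in Mito-high and Mito-low were 2.90% and 10.1% for Ttn, 7.498% and 17.4% for Neb, 11.9% and 17.2% for Nebl, 6.07% and 7.26% for Ryr2, and 13.3% and 26.9% for Myo3b. Free RNA can give a cell UMIs of a gene it does not express, and 25 Mito-high cells with at least 4 of 8 B cell markers, at a median of 3165 UMIs, served as a measure of it. Of the 25 cells, 1 had Ttn (4%, 0.101% to 20.4%), 0 had Neb (which allows a share of up to 12%), 2 had Nebl (8%), 1 had Ryr2 (4%) and 3 had Myo3b (12%). In the cluster of 23 Mito-high cells led by H2-Aa, 0 cells had Ttn, which allows a share of up to 13.04%. With so few cells the intervals are wide and, for the 25 cells, hold the share of all Mito-high cells for each of the 5 genes, so the level of free RNA was not resolved, and Mito-low held 0 such cells.

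**Figure D1:**
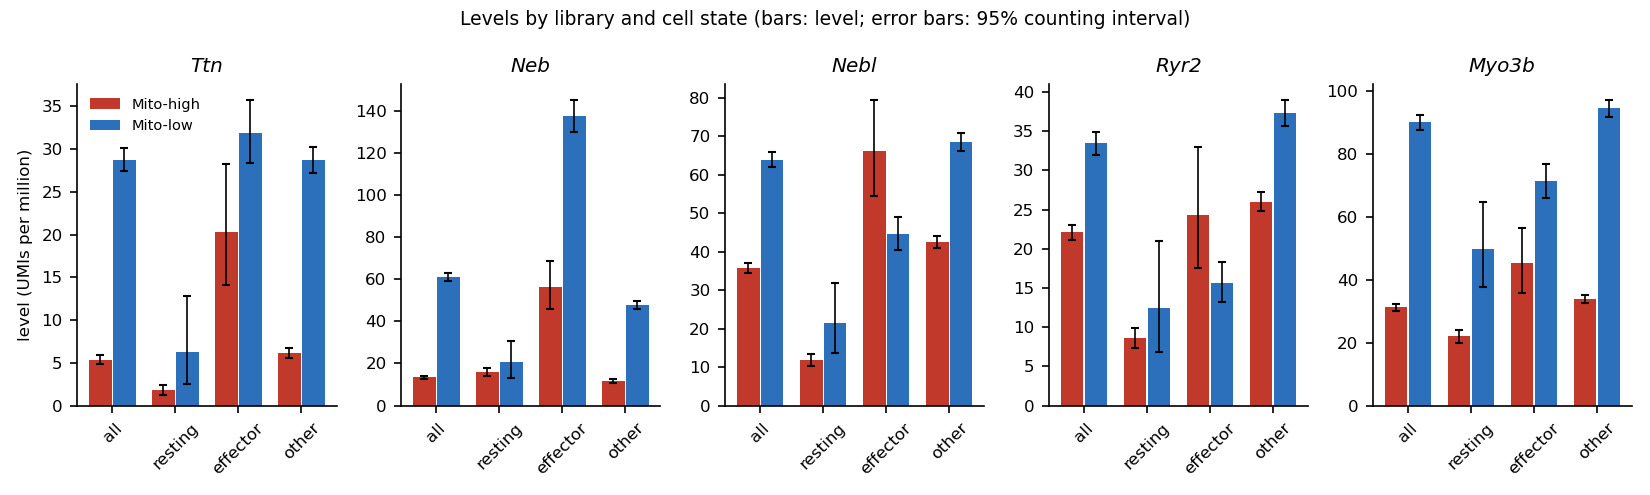
Level of each gene in CPM (vertical axes, each from 0) in all kept, resting, effector and other cells of the Mito-high (red) and Mito-low (blue) libraries, with 95% counting intervals as error bars. Ttn stands at 5.38 in all Mito-high and 28.8 in all Mito-low cells, and in effector cells the red bar is the higher for Nebl, 66.1 against 44.5, and for Ryr2, 24.4 against 15.6.

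States were set by a few detected genes. Resting cells had at least 1 UMI of Igfbp4, a gene of resting Treg cells in these data, effector cells had at least 2 of the 3 genes Ccl5, a chemokine, Il10, an inhibitory cytokine, and Klrg1, a receptor of differentiated lymphocytes, and other cells met neither rule. Of the Mito-high cells 2765 were resting (22.6%), against 185 of the Mito-low cells (1.58%). Effector cells numbered 165 in Mito-high (1.35%), against 1530 in Mito-low (13.1%). Mito-high had 9281 other cells, against 9961 for Mito-low, and the 6 Mito-high and 3 Mito-low cells that met both rules were set apart. Effector cells of Mito-high had a median of 8736 UMIs, against 5288 UMIs in those of Mito-low.

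Resting cells held little of most of the genes, with Nebl and Myo3b lower in Mito-high at full depth. Nebl was at 11.8 CPM in resting Mito-high cells and 21.4 CPM in resting Mito-low cells, a log2 ratio of -0.86 (-1.47 to -0.19). Myo3b was at 22.0 CPM in resting Mito-high cells and 49.9 CPM in resting Mito-low cells, a log2 ratio of -1.18 (-1.58 to -0.76). These are 2 of the 4 genes measured there, where 8.77% of 8596 measured genes were at least 1.5-fold lower, and 0 of the 4 were higher, beside 7.93%. Neb, at 15.9 CPM in Mito-high cells, against 20.5 CPM in Mito-low cells, and Ryr2, at 8.57 CPM and 12.5 CPM, had intervals of the log2 ratio that include 0 (-0.98 to 0.31 for Neb and -1.33 to 0.36 for Ryr2), so no difference was detectable at this depth. Ttn was below the measured level, with 38 UMIs or 1.79 CPM in resting Mito-high cells and 7 UMIs or 6.24 CPM in resting Mito-low cells.

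Effector cells split the 5 genes at full depth, with Ttn, Neb and Myo3b lower in Mito-high and Nebl and Ryr2 higher. At matched depth the Ryr2 difference was not seen, and those of Ttn and Myo3b were smaller. Neb was at 56.3 CPM in effector Mito-high cells (45.6 to 68.6), against 137 CPM in effector Mito-low cells (129.98 to 145), a log2 ratio of -1.29 (-1.60 to -0.99). Ttn was at 20.3 CPM in effector Mito-high cells, against 31.9 CPM in effector Mito-low cells, a log2 ratio of -0.65 (-1.20 to -0.15). Myo3b was at 45.2 CPM in effector Mito-high cells, against 71.4 CPM in effector Mito-low cells, a log2 ratio of -0.66 (-1.02 to -0.32). These 3 of 5 stand beside 15.5% of 9041 measured genes at least 1.5-fold lower, and with the median ratio of effector cells set to 0 Ttn, at -0.56, and Myo3b, at -0.57, were no longer 1.5-fold lower. Nebl was at 66.1 CPM in effector Mito-high cells (54.5 to 79.4), against 44.5 CPM in effector Mito-low cells (40.4 to 49.0), a log2 ratio of 0.57 (0.26 to 0.87). Ryr2 was at 24.4 CPM in effector Mito-high cells (17.6 to 32.9), against 15.6 CPM in effector Mito-low cells (13.2 to 18.3), a log2 ratio of 0.64 (0.11 to 1.15), which makes 1 of 5 at least 1.5-fold higher beside 10.5% of measured genes. The Ryr2 value rests on 42 UMIs in 14 Mito-high cells, of which 1 cell held 13 UMIs, and without that cell the log2 ratio was 0.13. With each effector cell thinned to 2000 UMIs, Ryr2 was at 12.1 CPM in Mito-high, from 4 cells with it, and 11.9 CPM in Mito-low, from 28, so its higher level in Mito-high was not seen at matched depth. Nebl was then at 72.7 CPM in effector Mito-high cells, against 44.1 CPM in effector Mito-low cells, and Neb at 57.6 CPM against 142 CPM. Ttn was at 21.2 CPM in Mito-high, from 4 cells with it, against 28.9 CPM in Mito-low, and Myo3b at 57.6 CPM against 66.0 CPM. By the share of thinned effector cells with a UMI, the intervals of the libraries lay apart for Neb alone. With the states themselves called at 2000 UMIs, 2 of the 5 were at least 1.5-fold lower in effector Mito-high cells. The share of all genes was not counted under that rule, so nothing is read from this number.

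Other cells, the largest class, had all 5 genes lower in Mito-high. Ttn was at 6.09 CPM in other Mito-high cells and 28.7 CPM in other Mito-low cells, a log2 ratio of -2.23 (-2.40 to -2.08). Neb was at 11.6 CPM in other Mito-high cells and 47.6 CPM in other Mito-low cells, a log2 ratio of -2.03 (-2.15 to -1.92). Myo3b was at 33.9 CPM in other Mito-high cells and 94.6 CPM in other Mito-low cells, a log2 ratio of -1.48 (-1.55 to -1.41). These 3 were close to their ratios over all cells. Nebl was at 42.5 CPM in other Mito-high cells and 68.5 CPM in other Mito-low cells, a log2 ratio of -0.69 (-0.76 to -0.62), which is -0.55 with the median ratio of other cells set to 0. Ryr2 was at 26.0 CPM in other Mito-high cells and 37.3 CPM in other Mito-low cells, a log2 ratio of -0.52 (-0.61 to -0.42). The 4 of 5 genes at least 1.5-fold lower there stand beside 10.1% of 8958 measured genes, and 0 of 5 were higher, beside 4.1%. Other cells held most UMIs of each gene, from 64.1% for Neb to 88.3% for Nebl in Mito-high. These counts thus largely repeat the ratio that chose the genes, and nothing is read from them.

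**Figure D2:**
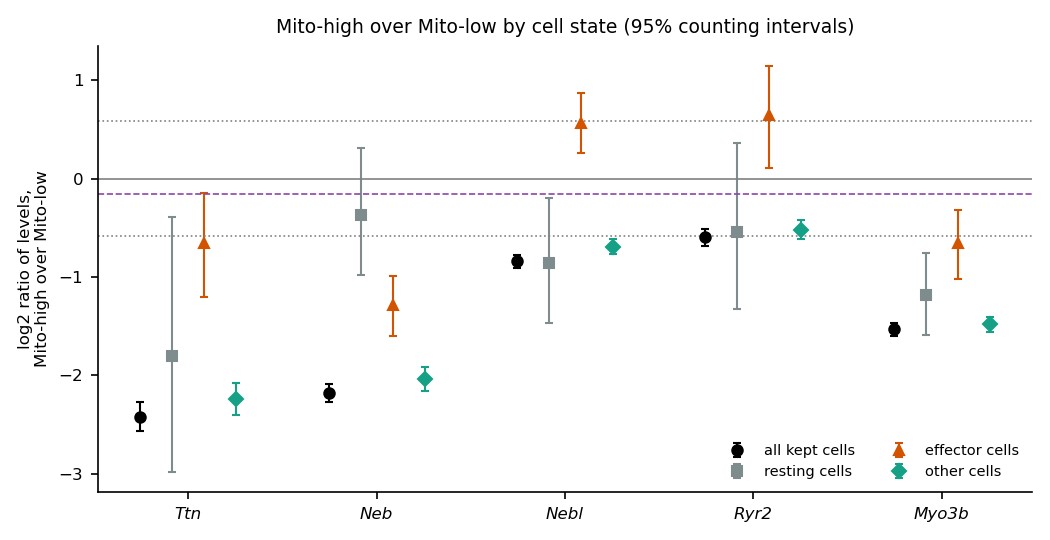
Log2 ratio of the level in Mito-high over that in Mito-low (vertical axis) for each gene in all kept, resting, effector and other cells, with 95% counting intervals as error bars, dotted lines at 1.5-fold and a dashed line at the median of all measured genes over all kept cells, -0.15. Effector cells lie above 0 for Nebl, at 0.57, and Ryr2, at 0.64, while other cells lie below 0 for all 5 genes.

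The mix of states differed between the libraries, and the ratios were therefore also taken with the states of Mito-high given the share of UMIs they have in Mito-low. The log2 ratio was then -1.81 for Ttn, -1.71 for Neb, -0.49 for Nebl, -0.40 for Ryr2 and -1.35 for Myo3b. Nebl and Ryr2 were then no longer 1.5-fold lower. Of the Neb UMIs of Mito-high 27.8% were in resting and 8.01% in effector cells, against 0.623% and 34.9% of those of Mito-low.

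Within a library the genes ordered the states differently. Neb was 4.84-fold higher in effector than in other cells of Mito-high (log2 2.28, 1.96 to 2.58) and 2.89-fold higher in those of Mito-low (1.53, 1.43 to 1.63). Ttn was 3.33-fold higher in effector than in other cells of Mito-high (1.74, 1.19 to 2.24), while in Mito-low the log2 value was 0.16 with an interval that includes 0 (-0.03 to 0.34). The Mito-high value of Ttn rests on 35 UMIs in 20 of 165 effector cells, of which 1 cell held 9 UMIs. At matched depth Ttn was in 2.42% of effector Mito-high cells (0.664% to 6.09%), against 0.994% of other Mito-high cells (0.801% to 1.22%). These intervals overlap, so the Ttn difference was not resolved at matched depth. Neb was thus the one of the 5 at least 1.5-fold higher in effector cells of both libraries. Nebl was 1.56-fold higher in effector than in other cells of Mito-high (0.64, 0.36 to 0.91), and in Mito-low it was lower, at a log2 value of -0.62 (-0.77 to -0.47). Ryr2 in effector over other cells was at -0.09 in Mito-high with an interval that includes 0 (-0.57 to 0.35), and at -1.26 in Mito-low (-1.51 to -1.01). Myo3b was at 0.42 in Mito-high (0.07 to 0.74) and at -0.41 in Mito-low (-0.53 to -0.29). Of its 78 UMIs in effector Mito-high cells 1 cell held 11. Without that cell Myo3b was at 39.0 CPM there, against 33.9 CPM in other Mito-high cells. At matched depth Myo3b was in 7.88% of effector Mito-high cells (4.26% to 13.1%), against 4.94% of other Mito-high cells (4.50% to 5.40%). These intervals overlap, so its Mito-high difference was not resolved at matched depth. In Mito-high at full depth 3 of the 5, Ttn among them, were at least 1.5-fold higher in effector cells, beside 14.1% of measured genes, and 0 lower, beside 7.96%. In Mito-low 1 was higher, beside 3.9%, and 2 were lower, beside 2.53%.

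Resting cells lay below other cells in both libraries for 4 of the genes. The log2 level in resting over other cells was -1.77 in Mito-high and -2.20 in Mito-low for Ttn, -1.85 and -1.68 for Nebl, -1.60 and -1.58 for Ryr2, and -0.62 and -0.92 for Myo3b. The interval was below 0 for each of these 8 values. Neb was instead higher in resting cells of Mito-high, at 0.45 (0.26 to 0.64), and lower in those of Mito-low, at -1.21 (-1.88 to -0.63). At matched depth Neb was in 3.09% of resting (2.47% to 3.80%) and 2.32% of other Mito-high cells (2.02% to 2.65%). In Mito-low it was in 3.89% of resting (1.58% to 7.85%) and 7.61% of other cells (7.09% to 8.16%). The intervals overlap in each library, so the Neb differences were not resolved at matched depth. In Mito-high 3 of 4 measured genes were at least 1.5-fold lower in resting cells, beside 4.83% of all measured genes, and 0 were higher, beside 0.722%. In Mito-low 5 of 5 were lower, beside 20.1%, and 0 higher, beside 5.46%.

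Levels on either side of the state rules were compared for the effector genes, with cells that met both rules counted in. Neb was at 11.5, 20.2, 50.3 and 65.9 CPM in Mito-high cells with 0, 1, 2 and 3 of the effector genes detected, and at 26.2, 82.3, 130.1 and 169.9 CPM in such cells of Mito-low. Its level was higher at each step in both libraries. Ryr2 was at 20.5, 30.3, 39.7 and 14.6 CPM over these steps in Mito-high, the last from 4 UMIs in 24 cells. The 39.7 CPM came from 63 UMIs, and the 6 Mito-high cells that met both rules held 25 Ryr2 UMIs over the last 2 steps. The Mito-high level with 2 effector genes thus leans on few cells, and its rise from the step before was not resolved. In Mito-low Ryr2 was at 43.4, 25.4, 16.3 and 11.8 CPM, so it was lower at each step in Mito-low alone. Nebl was at 28.7, 75.5, 62.9 and 91.5 CPM in Mito-high, against 67.6, 67.2, 45.7 and 38.4 CPM in Mito-low.

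Igfbp4 gave steps too, in cells with 0, 1 and at least 2 UMIs of it. The 6 Mito-high cells that met both rules, with their 25 Ryr2 UMIs, were counted here as well. Nebl was at 43.1, 15.5 and 10.0 CPM in Mito-high, against 64.7, 27.1 and 15.7 CPM in Mito-low over these steps. Ryr2 was at 26.0, 16.1 and 5.40 CPM in Mito-high, against 33.9, 20.4 and 3.49 CPM in Mito-low. Both were lower at each step in both libraries, though the Mito-low classes with Igfbp4 held 104 and 84 cells, and Ryr2 had 2 UMIs in the last. Neb was at 12.7, 13.4 and 17.4 CPM in Mito-high, against 61.7, 18.7 and 22.7 CPM in Mito-low.

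UMIs of Ryr2 were concentrated in few cells. Cells with at least 5 Ryr2 UMIs held 44.99% of them in Mito-high, against 40.1% in Mito-low, and the richest cell held 38 UMIs in Mito-high and 27 UMIs in Mito-low. For Nebl such cells held 30.2% of its UMIs in Mito-high, against 20.8% in Mito-low, and for Myo3b 21.7% and 19.4%. For Ttn it was 9.09% in Mito-high, against 11.6% in Mito-low, and for Neb 3.80% and 14.3%. A cut at 5 UMIs moves with a gene's level, and by the top 1% of cells the order differed. Those cells held 52.1% of the Ttn UMIs of Mito-high, against 27.5% of those of Mito-low, and 47.6% of the Ryr2 UMIs of Mito-high, against 43.4% of those of Mito-low. A single UMI was all that was seen in 77.3% of the Neb-positive cells of Mito-high and in 56.4% of those of Mito-low.

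Unsupervised clustering of the kept cells of both libraries gave 11 clusters, called here by their leading genes and given no cell type names. All 5 genes were among the 2000 variable genes that drew the clusters, so these levels are a description. Neb was highest, at 126 CPM, in a cluster of 3529 cells led by Ccl5, Il10 and Klrg1, which held 52.1% of its UMIs. Nebl was highest, at 212 CPM, in a cluster of 1443 cells led by Ccr10, a chemokine receptor, and Lgals3, a galectin. Myo3b was highest, at 318 CPM, in a cluster of 927 cells led by Gbp2b, Plac8 and Adam12. These are 3 different clusters, and another, of 781 cells led by Gm42418, which overlaps a ribosomal RNA repeat, had the highest Ttn, at 91.4 CPM, and Ryr2, at 106 CPM. Ryr2 was next highest, at 84.9 CPM, in a cluster of 2305 cells led by Il1r2, a decoy receptor for interleukin 1, by Ryr2 itself and by C2cd4b, which held 41.9% of its UMIs. In the clusters of 4670 and 3473 cells led by Igfbp4, Ttn was at 2.78 and 0.947 CPM and Nebl at 6.80 and 1.999 CPM.

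Clusters drawn without the 5 genes, 10 in number, kept most of these places. Neb was highest, at 120.3 CPM, in the cluster led by Klrg1, which held 57.8% of its UMIs, and Myo3b, at 301 CPM, in that led by Gbp2b. Ttn, at 75.6 CPM, and Ryr2, at 95.8 CPM, were highest in the cluster led by Gm42418. Nebl was highest, at 158 CPM, in the cluster led by Gbp2b and next, at 106 CPM, in that led by Ccr2, S100a4 and Lgals3, which held 42.2% of its UMIs. The cluster led by C2cd4b held 140 cells with at least 5 Ryr2 UMIs, 67.0% of all such cells, and that led by Gbp2b held 0, with Ryr2 at 1.59 CPM.

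Within these clusters the libraries did not differ alike. In the cluster led by Gm42418, with 82 Mito-high and 806 Mito-low cells, Ttn was at 79.5 CPM in Mito-high cells, against 75.2 CPM in Mito-low cells. In the cluster led by C2cd4b, with 2469 Mito-high and 1509 Mito-low cells, Ttn was at 8.19 CPM in Mito-high cells, against 28.1 CPM in Mito-low cells, and Ryr2 at 58.6 CPM in Mito-high cells, against 119.6 CPM in Mito-low cells. In the cluster led by Klrg1, with 407 Mito-high and 3606 Mito-low cells, Neb was at 55.7 CPM in Mito-high cells, against 131 CPM in Mito-low cells. Nebl was instead higher in Mito-high in several clusters, at 146 CPM in Mito-high cells, against 86.6 CPM in Mito-low cells in that led by Ccr2, and at 192 CPM and 142 CPM in that led by Gbp2b. The cluster led by Gm42418 had 2.13% of its UMIs from Malat1, a nuclear RNA, and a median of 4036.5 UMIs, and the part of these in its Ttn and Ryr2 levels was not tested.

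**Figure D3:**
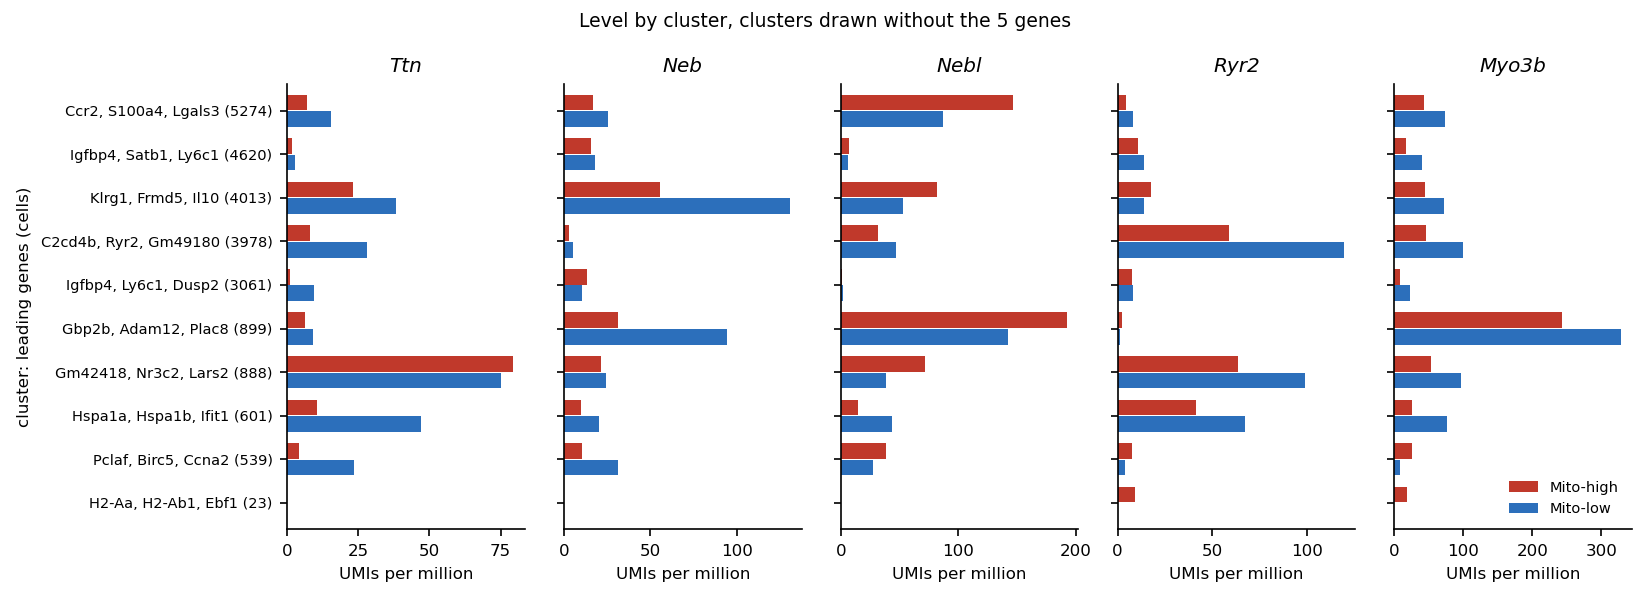
Level of each gene in CPM (horizontal axes, each from 0) in the Mito-high (red) and Mito-low (blue) cells of the 10 clusters drawn without the 5 genes, each named by its leading genes with its number of cells. Neb peaks in the cluster led by Klrg1, Myo3b in that led by Gbp2b and Ttn in that led by Gm42418, and the last cluster has no blue bar because it holds 0 Mito-low cells.

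Neb and Ryr2 were seen in the same cell less often than independent detection would give, in both libraries, after thinning to 2000 UMIs. In Mito-high 1 cell held both where 8.63 were expected, and Ryr2 was detected in 0.319% of Neb-positive cells (0.00809% to 1.77%), against 2.82% of Neb-negative cells (2.53% to 3.14%). In Mito-low 18 cells held both where 41.7 were expected, and Ryr2 was detected in 1.70% of Neb-positive cells (1.01% to 2.68%), against 4.18% of Neb-negative cells (3.80% to 4.59%). The odds ratio was 0.110 in Mito-high, against 0.397 in Mito-low, and at 4000 UMIs it was 0.434 and 0.382. With another random draw of 2000 UMIs it was 0.217 in Mito-high, against 0.231 in Mito-low, so the pair was below 1 in each draw while the gap between the libraries was not kept. Within other cells alone it was 0.136 in Mito-high and 0.384 in Mito-low. Within effector cells of Mito-low 5 cells held both where 6.06 were expected, an odds ratio of 0.784, and Ryr2 was detected in 1.53% of Neb-positive cells (0.4998% to 3.54%), against 1.95% of Neb-negative cells (1.24% to 2.91%).

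The other pairs lay on either side of 1. Neb and Nebl had odds ratios of 0.812 in Mito-high, against 0.806 in Mito-low, and Nebl and Ryr2 of 0.949 and 0.591. In Mito-low 26 cells held Nebl and Ryr2 where 41.6 were expected, with Ryr2 in 2.47% of Nebl-positive cells (1.62% to 3.597%), against 4.10% of Nebl-negative cells (3.73% to 4.51%). Nebl and Myo3b were together in 61 Mito-high cells where 27.9 were expected and in 183 Mito-low cells where 146.2 were, odds ratios of 2.48 and 1.35. Ttn and Ryr2 had odds ratios of 2.75 in Mito-high, from 7 cells with both, and 1.66 in Mito-low, from 31. These last 2 pairs were above 1 in both libraries. So were Ttn with Neb (1.61 in Mito-high and 1.23 in Mito-low), Neb with Myo3b (1.76 and 1.14) and Ttn with Myo3b (3.54 and 1.0002). Ttn and Nebl had an odds ratio of 5.96 in Mito-high, with 23 cells where 4.94 were expected, and of 1.08 in Mito-low, with 50 cells where 46.8 were. Ryr2 and Myo3b had odds ratios of 2.37 in Mito-high and 0.859 in Mito-low. Of the 10 pairs 7 in Mito-high and 6 in Mito-low were above 1. The shares in cells with and without the first gene had separate intervals on the higher side for 5 pairs in Mito-high and 2 in Mito-low. On the lower side they did so for 1 pair and 2 pairs. Pairs of other genes were not counted, so nothing is read from these numbers. At this depth 1.35% of Mito-high cells held 2 of the 5 genes and 0.0911% at least 3, against 5.23% and 0.402% of Mito-low cells. Cells of all states are pooled in these values and doublets could not be removed.

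**Figure D4:**
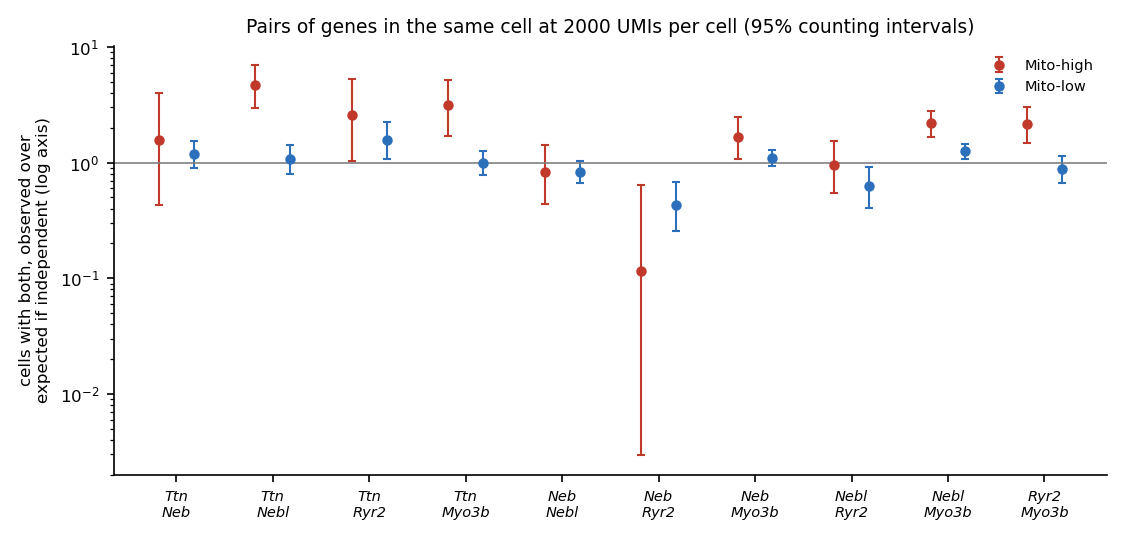
Number of cells with both genes of a pair over the number expected if they were detected independently (vertical log axis, line at 1) for the 10 pairs in Mito-high (red) and Mito-low (blue) cells thinned to 2000 UMIs, with 95% counting intervals of the observed number as error bars. Neb with Ryr2 lies below 1 in both libraries, at 0.116 in Mito-high, against 0.431 in Mito-low, and Nebl with Myo3b above 1 in both, at 2.19 and 1.25.

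In Mito-low Ttn, Neb, Nebl and Myo3b were higher in cells with more Malat1, a long noncoding RNA that stays in the nucleus, and Ryr2 less clearly so. Malat1 took 0.959% of the UMIs of Mito-high and 1.81% of those of Mito-low, and cells were cut into 4 equal bins by its share within each library. Ttn was at 18.0, 24.5, 31.5 and 43.8 CPM in Mito-low from the lowest to the highest bin, a log2 value of 1.28 for the highest over the lowest (1.08 to 1.49). Neb was at 41.8, 57.0, 64.5 and 84.7 CPM there, a log2 value of 1.02 (0.88 to 1.16). Myo3b was at 57.9, 87.6, 101 and 119.6 CPM, a log2 value of 1.05 (0.93 to 1.16). These 3 were higher at each step, as was Nebl. Nebl was at 46.5, 56.4, 75.7 and 80.04 CPM, a log2 value of 0.78 (0.65 to 0.92), and Ryr2 at 27.0, 35.4, 34.1 and 38.04 CPM, a log2 value of 0.49 (0.31 to 0.68). At least 1.5-fold higher in the highest bin were 4 of the 5, beside 22.3% of measured genes, and 0 were lower, beside 4.87%. The median of all measured genes was 0.20. At 2000 UMIs a cell, the share of Mito-low cells with Ttn was 2.65% in the lowest bin (2.08% to 3.31%) and 5.79% in the highest (4.96% to 6.72%). The share with Ryr2 was 3.83% in the lowest bin (3.15% to 4.60%) and 4.29% in the highest (3.57% to 5.11%), so for Ryr2 no difference was detectable at matched depth.

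In Mito-high at full depth 4 of the genes lay on the same side and Nebl did not. Ttn was at 4.46, 4.09, 4.96 and 9.16 CPM from the lowest to the highest Malat1 bin, a log2 value of 1.04 (0.69 to 1.38), so the highest bin alone stood out. Ryr2 was at 16.6, 22.7, 25.1 and 27.1 CPM, a log2 value of 0.71 (0.52 to 0.90). Neb was at 11.04, 13.1, 15.5 and 15.7 CPM (0.50) and Myo3b at 27.6, 28.6, 32.1 and 40.1 CPM (0.54). Nebl was highest in the bin with the least Malat1, at 49.1, 29.9, 26.6 and 31.8 CPM, a log2 value of -0.63 (-0.77 to -0.49). In Mito-high 2 of the 5 were at least 1.5-fold higher in the highest bin, beside 23.9% of measured genes, and 1 was lower, beside 15.6%. Within effector cells, 4 of the 5 were at least 1.5-fold higher in the highest bin of Mito-high, beside 36.7% of measured genes, and 5 of the 5 in that of Mito-low, beside 21.6%, though Ryr2 had 6 UMIs and 1 UMI in the end bins of Mito-high. Within other cells, 2 of the 5 were higher in the highest bin of Mito-high, beside 25.6%, and 4 of the 5 in that of Mito-low, beside 23.2%. Nebl in other Mito-high cells was at -0.58 (-0.74 to -0.43). Cells of the highest bin had a median of 5196.5 UMIs and those of the lowest 7836.5 UMIs in Mito-high, against 4225 UMIs and 4848 UMIs in Mito-low. At 2000 UMIs a cell, Nebl was in 4.70% of Mito-high cells of the highest bin (3.98% to 5.52%) and in 7.59% of those of the lowest (6.67% to 8.59%). Ttn was then in 1.26% of the highest (0.892% to 1.72%) and 0.762% of the lowest (0.484% to 1.14%). Ryr2 was in 3.31% (2.70% to 4.01%) and 2.22% (1.72% to 2.81%). Neb was in 2.82% (2.25% to 3.47%) and 1.99% (1.52% to 2.55%), and Myo3b in 5.60% (4.80% to 6.48%) and 4.17% (3.49% to 4.95%). The intervals of these 4 genes overlap, so their differences were not resolved at matched depth. Over single cells the Spearman correlation of a gene's share with the Malat1 share ran from -0.13, for Nebl in the 12217 cells of Mito-high, to 0.0831, for Myo3b in the 11679 cells of Mito-low, where both shares have the cell's total as divisor, and was -0.000249 for Ryr2 in Mito-low.

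**Figure D5:**
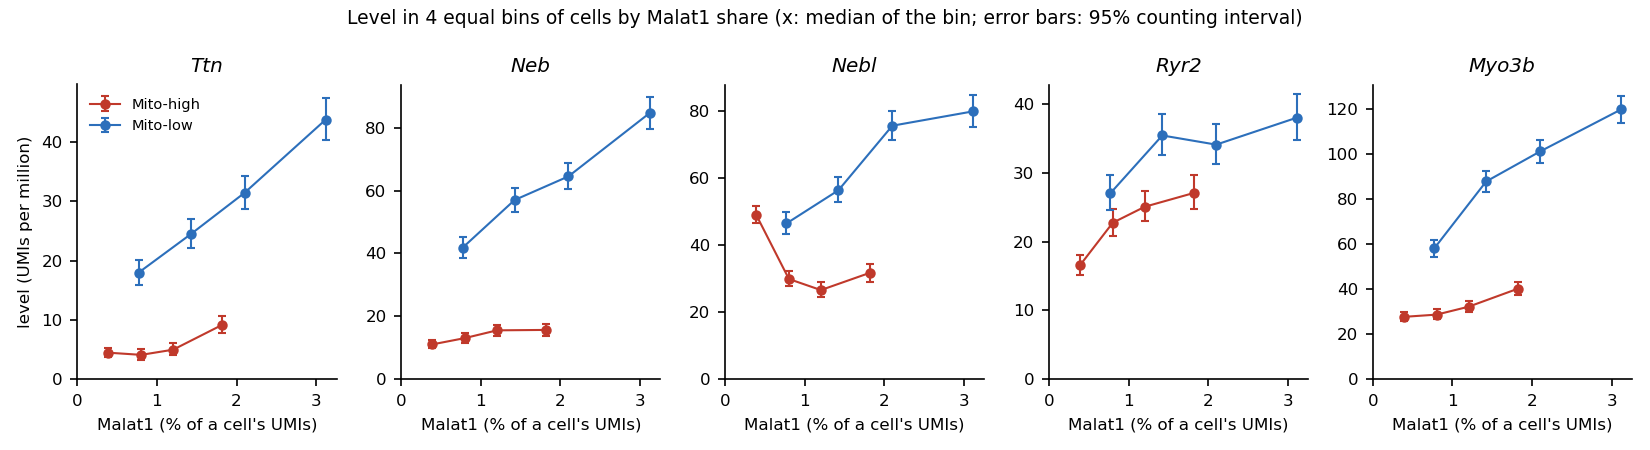
Level of each gene in CPM (vertical axes, each from 0) against the median Malat1 share of the bin, in percent of a cell's UMIs (horizontal axes), for the 4 bins of Mito-high (red) and of Mito-low (blue) cells, with 95% counting intervals as error bars. In Mito-low the right end is the highest for all 5 genes, and Nebl in Mito-high is highest at the left end, at 49.1.

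Ttn, Neb and Myo3b were lower in Mito-high also among cells of like Malat1 share. In 4 bins cut over both libraries together, the Mito-high over Mito-low log2 ratio of Ttn was -2.00, -2.08, -2.20 and -1.44 from the lowest to the highest Malat1 share. For Neb it was -1.83, -1.73, -1.92 and -2.13, and for Myo3b -0.76, -1.35, -1.33 and -1.33. For Nebl it was -0.01 in the lowest bin, with an interval that includes 0 (-0.17 to 0.16), and -0.89, -1.25 and -0.996 in the others. For Ryr2 it was -0.45, -0.45, -0.39 and -0.11, the last with an interval that includes 0 (-0.35 to 0.12), so it was under 1.5-fold in each bin. At least 1.5-fold lower in Mito-high were 3 of the 5 in the lowest bin, beside 8.2% of measured genes, and 4 of the 5 in each of the others, beside 10.9%, 11.7% and 10.9%. The bins divide the same cells whose ratio chose the genes, so nothing is read from these counts.

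Relatives of the 5 genes did not share one direction, and the counts below stand beside 11.5% of all measured genes at least 1.5-fold lower in Mito-high and 4.22% higher. Lasp1, an actin-binding relative of nebulin, was at 46.1 CPM in Mito-high cells, against 51.4 CPM in Mito-low cells (log2 -0.16). Of 12 measured genes of intracellular calcium release and store refilling other than Ryr2, 2 were at least 1.5-fold lower in Mito-high and 0 higher, with a median of -0.39. They were Orai3, a subunit of store-operated calcium channels, at 6.53 CPM in Mito-high cells, against 11.5 CPM in Mito-low cells (-0.82), and Ryr3, another ryanodine receptor, at 5.09 CPM and 8.21 CPM (-0.69). Of 6 measured partners of titin, 2 were lower and 2 higher, with a median of -0.13. The higher ones were Actn1, an alpha-actinin outside muscle, at 76.4 CPM in Mito-high cells, against 29.4 CPM in Mito-low cells (1.38), and Capn3, a protease that binds titin, at 35.5 CPM and 16.5 CPM (1.11). The lower ones were Sqstm1, an autophagy receptor, at 99.5 CPM in Mito-high cells, against 177 CPM in Mito-low cells (-0.83), and Actn2 (-0.75). Of 12 measured unconventional myosins and their partners, 3 were lower and 1 higher, with a median of -0.39. Myo1f, a myosin of blood cells, was at 8.13 CPM in Mito-high cells, against 28.9 CPM in Mito-low cells (-1.83), and Myo10, a myosin of filopodia, at 12.9 CPM and 6.53 CPM (0.99). Myo3a, the closest relative of Myo3b, had 10 UMIs in Mito-high and 16 UMIs in Mito-low.

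Genes with a pattern most like each of the 5 were sought by Pearson correlation of log2(CPM + 1) over 12 pools of cells, the 3 states of each library cut in a lower and an upper part by Malat1 share, among 7353 genes. The pools share libraries and states, so the values are a description. Ttn was most like Atp2b4, a calcium pump of the plasma membrane (r = 0.98), followed by Antxr2, Lpxn, Slc24a3 and Wls. Neb was most like Lin54 (0.97), followed by Arl5a, Ncmap, Snx20 and Nr3c1, the glucocorticoid receptor. Nebl was most like Reep3 (0.96), followed by Itgb1, an integrin chain, Ccr4, a chemokine receptor, Slc22a15 and Plcb4. Ryr2 was most like Glud1, glutamate dehydrogenase (0.91), followed by Cdon, Jazf1, Adam12 and Reep3. Myo3b was most like Ctla4, an inhibitory receptor of Treg cells (0.98), followed by Rnf216, Ezh1, Pvt1 and Ptpn22. Among the 5 themselves r ran from 0.26 for Neb with Ryr2 to 0.87 for Ttn with Neb.

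Counted genes overlap Ttn, Neb, Nebl and Myo3b in the annotation. Gm13938, antisense to Ttn, had 9 UMIs in Mito-high and 20 UMIs in Mito-low, and Gm13522, antisense to Neb, had 116 UMIs and 208 UMIs. Gm13324, antisense to Nebl, and Gm13631, on the strand of Myo3b, each had 1 UMI in Mito-high and 0 UMIs in Mito-low. Whether counting used strand and intronic reads is not given in the sources used here, so reads of such pairs may not have been told apart.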

How the data were processed

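The authors deposited unnormalized counts of UMIs by gene and cell barcode, made with Cell Ranger 7.1.0 per the file headers and with mm10 per the submitters' processing notes. The sources used here do not give the annotation release, intron handling or barcode filter. The 5 genes, states and lists were chosen with earlier results of these data known. Named genes are the 5, the 5 most like each among genes at a mean of at least 10 CPM, list members with the highest level or largest ratio, and state genes; Myo3a, and list members at 0 UMIs, were named after their values were seen.

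UMIs of kept cells were summed per library and state and scaled to 1000000. The 95% intervals are exact: Poisson for sums, conditional binomial for ratios and Clopper-Pearson for shares. For 0 counts the upper limit is 3 counts. With 1 library per group no test was made. Thinning used numpy 2.4.6, and it and the ratios were checked on simulated counts. Scrublet in scanpy 1.11.5, at an expected rate of 0.08, marked 0 cells in either library and so did not work; no doublets were removed. Clusters used 2000 variable genes, 30 principal components, 15 neighbours and Leiden resolution 0.6 (leidenalg 0.10.2). TMM factors came from edgeR 4.0.16. Alternatives covered scaling, cells kept, depth, weighting, state rules, seeds and clustering.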

Additional observations from a re-analysis of the deposited data

Results flagged for a closer look

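In each result here a gene lay on one side in some cells and on the opposite side in others, with counting intervals that exclude 0. None of these differences between groups was tested, since each population is 1 library.

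Effector over other cells gave Nebl a log2 value of 0.64 in Mito-high, against -0.62 in Mito-low, and Myo3b 0.42 in Mito-high and -0.41 in Mito-low. The Mito-high difference of Myo3b was not resolved at matched depth. Resting over other cells gave Neb 0.45 in Mito-high and -1.21 in Mito-low. The highest over the lowest bin of Malat1 share gave Nebl -0.63 in Mito-high and 0.78 in Mito-low.

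Mito-high over Mito-low, Nebl had a log2 ratio of -0.86 in resting, 0.57 in effector and -0.69 in other cells, and for Ryr2 0.64 in effector and -0.52 in other cells. For Ryr2 in effector cells thinned to 2000 UMIs, the level was 12.1 CPM in Mito-high cells, against 11.9 CPM in Mito-low cells. For Nebl in resting cells so thinned, it was 7.08 CPM in Mito-high cells, against 8.33 CPM in Mito-low cells, the latter from 3 cells with Nebl. By cluster, Nebl was at 0.81 in that led by Ccl5, Il10 and Klrg1, at 0.42 in that led by Gbp2b and at 0.89 in that led by Gm42418. It was at -0.73 in the cluster led by Il1r2, Ryr2 and C2cd4b and at -1.02 in that led by Hspa1a. Ryr2 was at 0.78 in the cluster led by Ccl5 and at 0.54 in that led by Gm42418, but at -1.12 in that led by Il1r2, Ryr2 and C2cd4b and at -0.60 in that led by Itgb1. The cluster led by Ccl5 held 239 Mito-high and 3290 Mito-low cells, and that led by Gm42418 held 79 and 702. Nebl and Ryr2 were among the genes that drew these clusters. In clusters drawn without the 5 genes, Ryr2 was at 63.6 CPM in Mito-high cells, against 99.1 CPM in Mito-low cells, in the cluster led by Gm42418, the opposite side, and at 17.9 CPM against 14.1 CPM in that led by Klrg1. Nebl kept its side in both, at 71.6 CPM in Mito-high cells, against 38.1 CPM in Mito-low cells, in the cluster led by Gm42418, and at 81.5 CPM against 53.0 CPM in that led by Klrg1.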

How the results depend on the processing

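The log2 ratios over all kept cells stayed below 0 for each gene under 14 alternatives. They were at least 1.5-fold lower in Mito-high under 14 of them for Ttn, Neb and Myo3b, 13 for Nebl and 9 for Ryr2. TMM gave -2.23 for Ttn, -1.99 for Neb, -0.65 for Nebl, -0.41 for Ryr2 and -1.34 for Myo3b, and the median ratio set to 0 gave -2.26, -2.03, -0.69, -0.44 and -1.37 for them. With totals free of mt-, ribosomal protein, T cell receptor and immunoglobulin genes, Neb was at -2.06, Nebl -0.72, Ryr2 -0.48 and Myo3b -1.41. Without the 5% of cells with the most UMIs, Ryr2 was at -0.70. Cells of 4000 to 6000 UMIs gave -3.04 for Ttn, -2.03 for Neb, -1.52 for Nebl, -1.29 for Ryr2 and -1.85 for Myo3b. With each cell weighted alike, Nebl was at -0.98, Ryr2 -0.71 and Myo3b -1.60. Thinned to 2000 UMIs, Neb was at -2.07, Nebl -0.92, Ryr2 -0.70 and Myo3b -1.63, and thinned to 4000 UMIs Neb was at -2.05, Nebl -0.93 and Ryr2 -0.80. Chosen after the data were seen, weighting the states as in Mito-low gave -1.81 for Ttn, -1.71 for Neb, -0.49 for Nebl, -0.40 for Ryr2 and -1.35 for Myo3b, and leaving out the cluster led by Gm42418 gave Ryr2 -0.48. The cause was not tested.

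At a mean of at least 20 CPM, 1 gene was at least 1.5-fold lower in resting cells. The share of all genes was not counted at that level, so nothing is read from this number. The log2 ratio of the share of Neb-positive cells was -1.62 at 4000 UMIs, against -1.86 at 2000. The odds ratio of Ttn with Nebl in Mito-low was 0.905 with another random seed, against 1.08. Of 20 Malat1 values 13 moved beyond counting error and 0 changed side, and the Nebl value in Mito-high was -1.14 when mt-, ribosomal protein and the 5 genes were left out of the share. Of 30 ratios within states, chosen after the data were seen, 4 moved and 0 changed side. Of 10 levels in the highest cluster 7 moved.

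No paired analysis was possible because each population is 1 library without replicate numbers, and for the same reason no replicate was left out. The 185 resting Mito-low cells limit the values of that state.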
